A study of Rattus norvegicus with 13 samples.

Results

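Nerve terminals release transmitter from small vesicles. Here 62 genes of this machinery and of its wider gene families were compared between neurons and axons in cultures of rat cortex. The set held every probe set with a single gene symbol in the array's annotation that began with Syt and a digit, Vamp, Cplx, Syngr or Ppfia, together with 30 listed genes of vesicles, membrane fusion and the active zone. Of the 30 listed genes, 29 were measured, and *Doc2a* was without a probe set of its own. The 62 genes were read by 93 probe sets, out of 14217 genes and 20826 probe sets with 1 symbol. By role they comprised 9 fusion SNAREs, 3 genes of SNARE disassembly, 18 calcium sensors and related C2 domain proteins, 3 complexins, 10 genes of priming and the active zone, 11 vesicle proteins, 5 genes of vesicle recycling and 3 transporters that load transmitter.

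Cortical neurons of the rat were kept for 13 days in medium with B27 supplement in compartmentalised microfluidic devices, where axons grow into a chamber of their own and can be collected without cell bodies. GeneChip arrays measured their polyadenylated RNA, with 7 arrays for uninjured axons, 3 for regenerating axons and 3 for uninjured neurons. Regenerating axons were those collected 2 days after a cut made on day 11, and the neurons of cut axons were not analysed here. Material of 3 devices was pooled for each array, uninjured axons came from 3 culture batches, and the labels do not say whether arrays of one group were separate cultures, so the spread between arrays may be technical.

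Each deposited value was a linear ratio and was used here as log2, with 0 for the level of the reference. Uninjured arrays 1 to 3 and 4 to 6 were divided by their own medians, so the median over the 6 arrays lay between -0.02 and 0.05 for every gene given below by array, and their lowest and highest values are stated instead. Uninjured array 7 was exactly 1 throughout and held no measurement. What the other arrays were divided by is not given in the sources used here. It was read as the uninjured axon level, and every direction against uninjured axons rests on this. A ratio says nothing of a transcript's level, so whether a gene was expressed in axons, and which marker genes were at 0, cannot be read from it, and levels of different genes were not compared. A gene's value was the mean of its probe sets. Errors are standard errors (SE) of the limma fit with n = 3 arrays, and a gene is called higher or lower where its p-value, adjusted over all 14217 genes by the method of Benjamini and Hochberg, is under 0.05. The number of arrays limits the precision, and so does the error given to the reference, which was counted as 1 array. Calls in regenerating axons depended on this choice, as the last section shows. Median SEs of the 62 genes were 0.24 for neurons and 0.20 for regenerating axons, both against uninjured axons.

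The labels were checked against marker genes. All 8 neuron markers and 9 of 10 astrocyte markers were higher in the neuron arrays than in uninjured axons, so RNA of astrocyte genes was higher in these arrays along with that of neuron genes. Medians of the neuron markers were log2 3.10, 2.32 and 3.37 in the 3 neuron arrays and those of the astrocyte markers 3.21, 3.35 and 3.47. Of 8 oligodendrocyte markers 3 were higher and 2 lower, with a median of 0.06. Of 9 microglia markers 8 were lower, with a median of -0.85, and none was higher, also at an unadjusted p under 0.05 in the limma fit. The microglia values ran from -1.43 to -0.71. Receptor genes without a known role in cortex, described further on, spanned -1.61 to -0.13, with a median of -0.98. The microglia values alone therefore do not show that microglial RNA was lower in the neuron arrays. The part of the receptor genes' shift in them was not tested. Hybridisation controls, which are spiked in at a set amount, read log2 -1.33, 0.14 and -2.22 in the neuron arrays, and beta-actin at its 3′ end read 6.15, 5.26 and 6.32. The part of glial RNA and of the amount of labelled RNA in the results below was not tested. In bulk RNA, fewer cells of a type and less RNA per cell cannot be told apart.

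As background, a synaptic vesicle fuses when its SNARE protein, synaptobrevin, zips together with syntaxin and SNAP-25 of the plasma membrane. Synaptotagmins sense the calcium that triggers this step, complexins clamp and assist it, and the ATPase NSF with its SNAP adaptors takes the spent SNARE complexes apart. Munc13, RIM, Bassoon, Piccolo and the liprins hold and prime vesicles at the active zone, and dynamin, synaptojanin, endophilin and clathrin adaptors recover the membrane afterwards.

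The start regions of 4 of these genes are shown, for the SNARE partners *Vamp2* and *Stx1a*, which were higher in neurons, for *Vamp8*, a relative that was lower, and for *Ppfia3*, the one gene of the 62 called in regenerating axons. Each is a run of 300 bases across the gene's start, most of it upstream, from RefSeq on GRCr8, with every match to a motif searched for in capitals. They lie at chr10:54292539-54292838 on the plus strand for *Vamp2* and, on the minus strand, at chr12:27306422-27306721 for *Stx1a*, chr4:106005593-106005892 for *Vamp8* and chr1:104982229-104982528 for *Ppfia3*.
Vamp2: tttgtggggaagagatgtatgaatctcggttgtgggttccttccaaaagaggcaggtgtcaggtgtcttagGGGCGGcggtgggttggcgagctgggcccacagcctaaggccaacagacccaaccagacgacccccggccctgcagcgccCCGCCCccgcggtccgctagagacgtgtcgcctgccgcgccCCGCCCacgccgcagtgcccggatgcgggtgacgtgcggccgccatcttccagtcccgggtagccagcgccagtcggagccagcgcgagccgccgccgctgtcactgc
Stx1a: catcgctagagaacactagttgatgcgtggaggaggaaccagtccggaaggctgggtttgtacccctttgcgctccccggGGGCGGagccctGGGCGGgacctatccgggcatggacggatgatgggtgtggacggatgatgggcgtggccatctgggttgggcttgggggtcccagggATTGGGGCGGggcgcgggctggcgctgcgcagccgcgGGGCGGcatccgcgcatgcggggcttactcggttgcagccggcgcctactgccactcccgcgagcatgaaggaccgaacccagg
Vamp8: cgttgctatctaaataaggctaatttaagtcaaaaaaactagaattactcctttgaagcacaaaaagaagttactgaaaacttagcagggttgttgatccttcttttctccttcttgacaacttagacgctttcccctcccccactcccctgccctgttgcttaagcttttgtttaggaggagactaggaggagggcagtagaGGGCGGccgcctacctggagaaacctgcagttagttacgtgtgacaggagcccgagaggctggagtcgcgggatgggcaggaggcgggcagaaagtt
Ppfia3: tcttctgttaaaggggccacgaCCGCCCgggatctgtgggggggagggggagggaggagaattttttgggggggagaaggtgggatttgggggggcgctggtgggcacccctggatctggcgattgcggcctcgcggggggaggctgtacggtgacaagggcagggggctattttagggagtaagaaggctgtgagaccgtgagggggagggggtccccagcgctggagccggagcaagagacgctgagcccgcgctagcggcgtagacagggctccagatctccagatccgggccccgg

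The capitals mark GC boxes (GGGCGG), 3 in *Vamp2*, 4 in *Stx1a* and 1 each in *Vamp8* and *Ppfia3*, and 1 CCAAT box (CCAAT) in *Stx1a*. Start regions of 46 of the 62 genes were matched by gene identifier. Those of *Doc2b*, *Ppfia2*, *Rims2*, *Snap25*, *Snap91*, *Syn3*, *Syngr1*, *Syngr3*, *Syt10*, *Syt12*, *Syt13*, *Syt17*, *Syt5*, *Syt7*, *Vamp3* and *Vamp7* were not. On either strand, a GC box occurred in 33 of the 46 (71.7%), against 33.1% of all 33469 promoters in the table. A CCAAT box occurred in 30.4% against 37.5%, and the letters TATAAA of a TATA box in 0 of 46 against 14.2%. The cyclic AMP response element TGACGTCA was found in 4 genes (8.7% against 1.83%), namely *Napa*, *Sh3gl2*, *Syn1* and *Vamp1*, and the E box CACGTG in 10.9% against 6.42%. In *Stx1a* the CCAAT match, on the opposite strand, overlaps a GC box. A match is a description of the sequence. GC content had a median of 65.2% in the 46 and 51.7% in all promoters. Genes higher and lower in neurons were alike in the commonest motif, with a GC box in 72.7% of 22 and in 70.0% of 10.

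Set against uninjured axons, the neuron arrays gave ratios above or below the reference for these messenger RNAs. Values below 0 were also common in receptor genes not known for a role in cortex, described below. A value below 0 alone therefore does not show that a messenger RNA stood higher in axons. *Snap25*, *Stx1a*, *Vamp2*, the 3 SNARE disassembly genes, 7 of 11 vesicle proteins and 4 of 5 recycling genes were higher in neurons, while most synaptotagmins and all but one of the active zone genes were not. In all, 28 of the 62 (45.2%) were higher and 14 (22.6%) lower, beside 36.9% and 23% of all genes, and the median difference was log2 0.37 beside 0.22 over all genes. At least 2-fold differences were held by 26 of the 28 and by 5 of the 14. Over all genes 4264 of the 5249 higher and 1304 of the 3271 lower did so. Neuron arrays lay above all 6 uninjured arrays for 31 of the 62 genes and below them for 17 of the 62. Over all 14217 genes the counts were 5943 (41.8%) and 4301 (30.3%). The share that was lower was thus near the background and that of the higher genes moderately above it. The shares of all genes called, 36.9% higher and 23% lower, are also the background for the counts by role below.

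**Figure D1:**
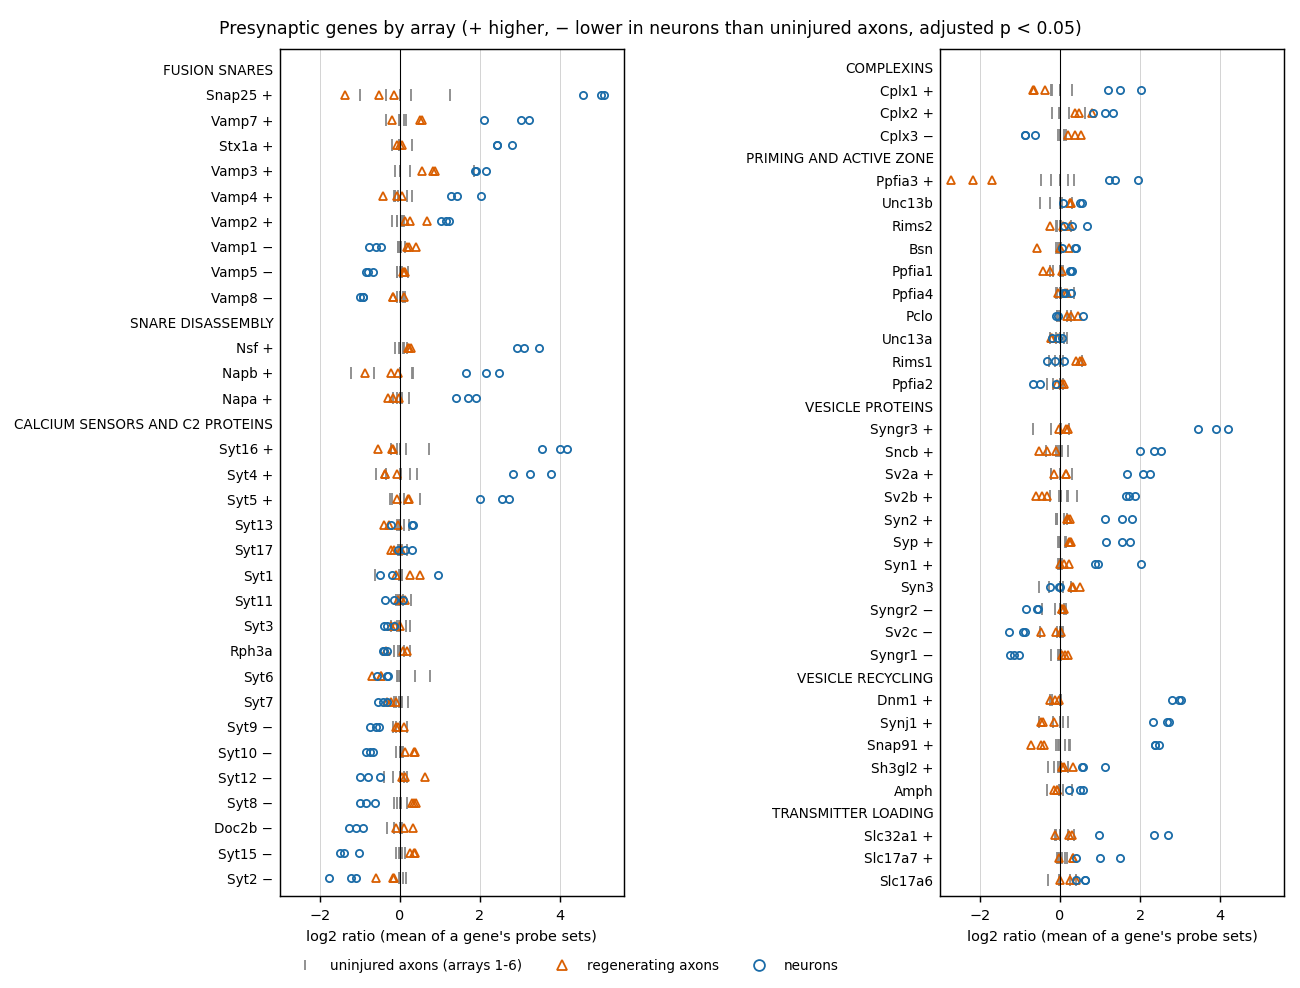
Log2 ratio (horizontal axis, mean of a gene's probe sets) of each of the 62 genes in 6 uninjured axon arrays (grey bars), 3 regenerating axon arrays (orange triangles) and 3 neuron arrays (blue circles), grouped by role and ordered within a role by the neuron value. Plus and minus signs mark the 28 genes called higher and the 14 called lower in neurons than in uninjured axons. Neuron circles reach 5.10 for *Snap25*, and the lowest regenerating triangles are those of *Ppfia3*, from -1.69 to -2.72.

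Both SNAREs of the plasma membrane were higher in neurons. *Snap25*, which lends helices to the SNARE bundle, had ratios of 34.4, 23.7 and 32.2 in neurons, which is log2 5.10, 4.57 and 5.01. Uninjured arrays spread from -0.98 to 1.26, the widest range of the 62 genes, and regenerating arrays read -0.14, -0.51 and -1.36. The neuron arrays stood far above both kinds of axon array, which overlapped each other. The difference from uninjured axons was log2 4.89 ± 0.61 (29.7-fold, adjusted p = 0.000166), the highest of the set. *Stx1a*, the syntaxin of nerve terminals, read 2.43, 2.42 and 2.81 in neurons, 0.06, -0.06 and 0.01 in regenerating axons and between -0.19 and 0.31 in uninjured axons. It was higher in neurons by 2.55 ± 0.23 (adjusted p = 2.74e-05), and its axon arrays again overlapped.

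The 7 VAMP genes split, with 4 higher and 3 lower. *Vamp2*, synaptobrevin 2 and the principal vesicle SNARE of the forebrain, read 1.02, 1.16 and 1.22 in neurons, 0.67, 0.24 and 0.12 in regenerating axons and -0.20 to 0.11 in uninjured axons. All 3 regenerating arrays lay just above the uninjured ones without being called. The neuron difference was 1.14 ± 0.18 (adjusted p = 0.000744), but it is the mean of a pair of probe sets with opposite signs, described further on. *Vamp7*, a SNARE of late endosomes and lysosomes, was higher by 2.79 ± 0.37, *Vamp3*, the endosomal cellubrevin, by 1.97 ± 0.60, and *Vamp4*, of the trans-Golgi network, by 1.58 ± 0.30. For *Vamp3*, uninjured array 4 stood at 1.86, close to the neuron arrays at 2.15, 1.87 and 1.89. The 3 lower members were *Vamp1* (-0.61 ± 0.18), *Vamp5* (-0.77 ± 0.17) and *Vamp8* (-0.95 ± 0.16). *Vamp8*, endobrevin, read -0.997, -0.920 and -0.924 in neurons and -0.08 to 0.13 in uninjured axons, with regenerating arrays at 0.10, -0.16 and -0.18. Neurons lay below all axon arrays. With the probe set of highest mean in place of the mean, the *Vamp1* value turned to 0.15 (adjusted p = 0.585). This mean is of log2 ratios over all arrays, neurons included, so it favours probe sets that are higher in neurons. For *Vamp1* the other 2 probe sets were called lower, down to -1.35.

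All 3 genes that take SNARE complexes apart were higher in neurons. *Nsf*, the ATPase, read 3.11, 2.93 and 3.47 in neurons, 0.24, 0.27 and 0.22 in regenerating axons and from -0.11 to 0.18 in uninjured axons. Its difference of 3.17 ± 0.22 (8.98-fold, adjusted p = 9.17e-06) was shared by all 3 of its probe sets, at 2.96, 2.67 and 3.87. *Napa*, the alpha-SNAP adaptor that recruits NSF, was the least different of the trio, at 1.91, 1.41 and 1.71 in neurons against -0.16 to 0.22 in uninjured and -0.03, -0.31 and -0.16 in regenerating axons (1.68 ± 0.22, adjusted p = 0.000244). *Napb*, the brain form beta-SNAP, differed by 2.09 ± 0.56.

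Among calcium sensors and C2 domain proteins the picture was mixed, with 3 of 18 higher, 7 lower and 8 not called, and a median of -0.38. *Syt1*, the sensor of fast synchronous release in the forebrain, was not called. It read -0.49, -0.20 and 0.95 in neurons, 0.25, 0.50 and -0.09 in regenerating axons and -0.61 to 0.06 in uninjured axons, so the neuron arrays disagreed in sign and straddled the axon arrays. Its difference was 0.09 ± 0.47 (adjusted p = 0.882), with an error that is wide beside those of its family, from a single probe set. *Syt16*, an atypical synaptotagmin that lacks the residues for calcium binding, was the highest of the family, at 3.56, 3.99 and 4.17 in neurons, -0.20, -0.16 and -0.54 in regenerating axons and -0.21 to 0.74 in uninjured axons. The neuron arrays lay well above the rest, by 3.91 ± 0.35 (15.0-fold, adjusted p = 2.59e-05). *Syt4*, found on dense-core and other secretory vesicles, followed at 3.28 ± 0.42 and *Syt5* at 2.42 ± 0.33.

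The genes lower in neurons in this group were *Syt2*, *Syt15*, *Doc2b*, *Syt8*, *Syt12*, *Syt10* and *Syt9*. *Syt2*, the fast sensor of hindbrain and spinal synapses, was the lowest, at -1.22, -1.11 and -1.76 in neurons against -0.02 to 0.14 in uninjured axons (-1.36 ± 0.24, adjusted p = 0.00126). Regenerating arrays were between, at -0.61, -0.14 and -0.17, and all lay below the uninjured range. *Syt15* read -1.40, -1.02 and -1.50 in neurons and -0.09 to 0.13 in uninjured axons (-1.30 ± 0.21). *Doc2b*, a soluble high-affinity calcium sensor, differed by -1.09 ± 0.21, and the other 4 by -0.61 to -0.82. Without neuron array 3, *Syt12* (-0.75 ± 0.26, adjusted p = 0.0308) no longer passed (adjusted p = 0.0678). *Syt7*, a slow sensor of asynchronous release (-0.43 ± 0.19, adjusted p = 0.0693), and the Rab3 effector *Rph3a* (-0.38 ± 0.19, adjusted p = 0.105) did not pass, though *Syt7* did without neuron array 2 (adjusted p = 0.0424). *Syt3*, *Syt6*, *Syt11*, *Syt13* and *Syt17* were not called either, with values between -0.39 and 0.14.

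Values of this size below 0 also occurred in genes not known for a role in cortex. Of 41 measured genes of the smell, taste and pheromone receptor classes, 33 (80.5%) were called lower in neurons and none higher. Over all genes 23% were lower and 36.9% higher. The receptor genes had values from -1.61 to -0.13 and a median of -0.98. None of 41 was higher at any p under 0.05 in the limma fit. None of the 14 genes of the set that were lower in neurons lay below the lowest receptor gene. The part of this shift in the 14 lower values was not tested.

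Complexins bind the assembled SNARE bundle. *Cplx1* read 1.19, 1.51 and 2.02 in neurons, -0.38, -0.64 and -0.68 in regenerating axons and -0.22 to 0.29 in uninjured axons. *Cplx2*, the other main forebrain form, read 0.83, 1.31 and 1.13, then 0.37, 0.81 and 0.48, and -0.19 to 0.61. The regenerating arrays thus fell below the uninjured range for *Cplx1* and lay around its upper end for *Cplx2*. Against uninjured axons, neurons were higher by 1.57 ± 0.29 (adjusted p = 0.00156) for *Cplx1* and by 1.09 ± 0.30 (adjusted p = 0.0122) for *Cplx2*. *Cplx3*, known best from ribbon synapses of the retina, went the other way, at -0.88, -0.61 and -0.89 in neurons, 0.19, 0.37 and 0.53 in regenerating axons and -0.05 to 0.16 in uninjured axons (-0.79 ± 0.18, adjusted p = 0.00465).

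**Figure D2:**
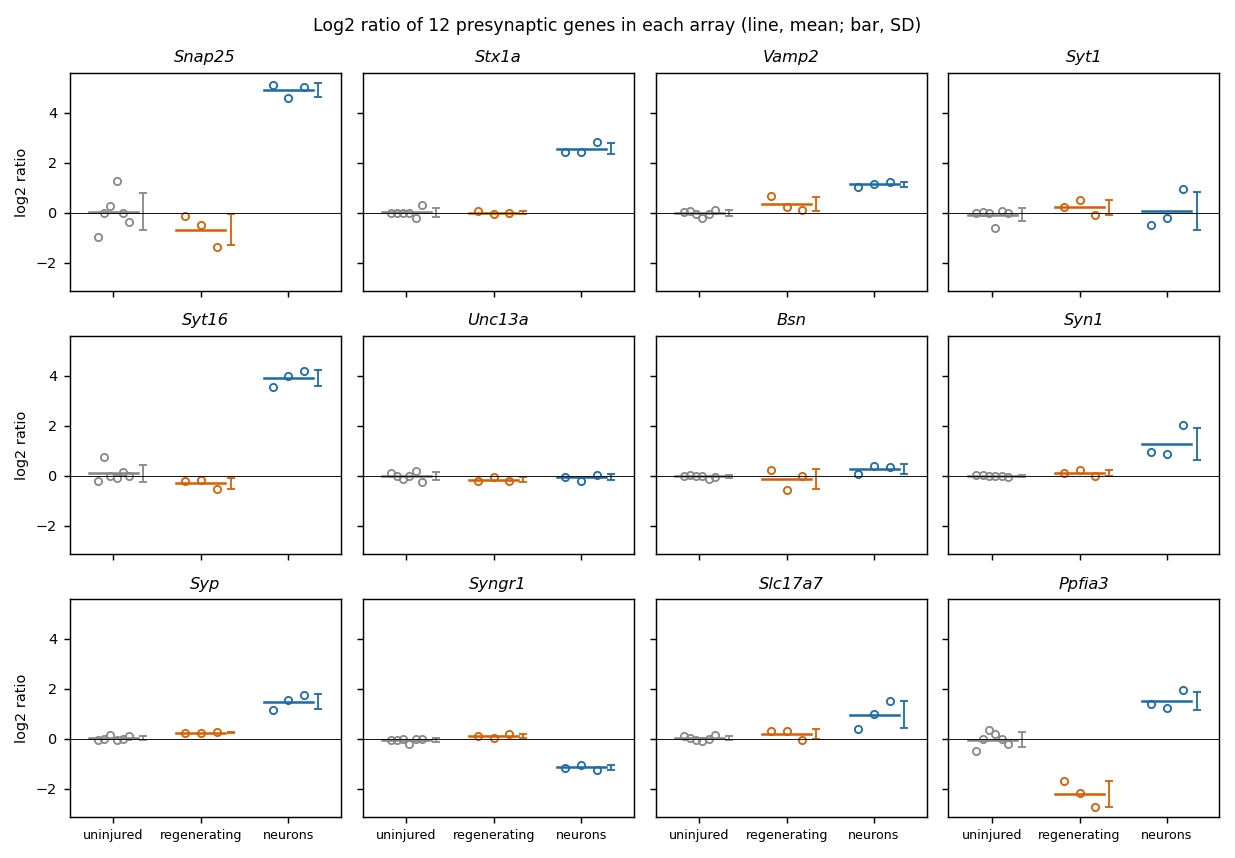
Log2 ratio (vertical axis) of 12 genes in each array of uninjured axons (6 arrays, grey), regenerating axons (3, orange) and neurons (3, blue). Horizontal lines are group means and bars beside them SDs. *Snap25*, *Stx1a*, *Vamp2*, *Syt16*, *Syn1*, *Syp* and *Slc17a7* stand higher and *Syngr1* lower in neurons, *Syt1*, *Unc13a* and *Bsn* differ little, and *Ppfia3* is the one with regenerating arrays far below the uninjured arrays.

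Of 10 genes for priming and the active zone, 1 was higher in neurons, none was lower and 9 were not called, and the 9 had values between -0.42 and 0.37. The limma fit gave 1 of 10 at an unadjusted p under 0.05, the same gene. *Unc13a*, Munc13-1, which primes vesicles by opening syntaxin, read -0.05, -0.19 and 0.05 in neurons, -0.21, -0.05 and -0.22 in regenerating axons and -0.26 to 0.18 in uninjured axons. All 3 groups overlapped, and the neuron difference was -0.07 ± 0.21 (adjusted p = 0.793). *Pclo*, the scaffold Piccolo, read -0.05, -0.09 and 0.56, then 0.28, 0.45 and 0.16, and -0.08 to 0.28 (0.14 ± 0.27, adjusted p = 0.668). *Bsn*, the related scaffold Bassoon, read 0.05, 0.41 and 0.37 in neurons, 0.21, -0.58 and -0.01 in regenerating axons and -0.11 to 0.02 in uninjured axons (0.28 ± 0.18, adjusted p = 0.213). The neuron arrays of *Bsn* lay just above the uninjured ones, and this too is a mean of opposite probe sets.

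*Rims1* (-0.12 ± 0.29) and *Rims2* (0.36 ± 0.24), whose proteins tie Rab3 on vesicles to calcium channels, and *Unc13b*, Munc13-2 (0.37 ± 0.29), were not called. Among the liprins-alpha, scaffolds that bind RIM and motor proteins, *Ppfia3* was higher in neurons by 1.51 ± 0.35 (adjusted p = 0.00492). *Ppfia1* (0.27 ± 0.16), *Ppfia4* (0.15 ± 0.20) and *Ppfia2* were not called. The *Ppfia4* value is the mean of a probe set called higher (0.69) and another that was not called (-0.38). *Ppfia2*, the lowest of this role, read -0.49, -0.11 and -0.66 in neurons, -0.08, 0.09 and 0.05 in regenerating axons and -0.31 to 0.07 in uninjured axons (-0.42 ± 0.24, adjusted p = 0.155), and it passed without neuron array 2 (-0.58, adjusted p = 0.0342). A miss of the threshold does not show that these genes stood equal in neurons and axons.

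Of 11 vesicle proteins 7 were higher, 3 lower and 1 not called. *Syngr3*, a synaptogyrin of neurons, led them, at 3.88, 3.44 and 4.20 in neurons, 0.20, -0.04 and 0.16 in regenerating axons and -0.68 to 0.22 in uninjured axons (3.84 ± 0.36, 14.3-fold, adjusted p = 3.27e-05). *Syngr1*, its relative, was the lowest of the group, at -1.15, -1.03 and -1.24 in neurons against 0.13, 0.05 and 0.19 in regenerating and -0.22 to 0.02 in uninjured axons (-1.14 ± 0.17, adjusted p = 0.000539). The synaptogyrins therefore differed in direction, and *Syngr2*, the form of many tissues, was lower, at -0.66 ± 0.25 (adjusted p = 0.042), a call lost without neuron array 1, 2 or 3 (adjusted p = 0.0560, 0.0703 and 0.0536). The SV2 glycoproteins did so too, with *Sv2a* and *Sv2b* higher (1.99 ± 0.26 and 1.74 ± 0.25) and *Sv2c* lower (-1.02 ± 0.25). *Sv2a*, the broadly expressed form, read 2.07, 1.67 and 2.24 in neurons, 0.14, 0.15 and -0.16 in regenerating axons and -0.23 to 0.30 in uninjured axons.

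Synapsins tether vesicles to each other and to actin. *Syn1* read 0.94, 0.87 and 2.02 in neurons, 0.10, 0.22 and 0.00 in regenerating axons and -0.05 to 0.04 in uninjured axons, so the third neuron array stood apart from the other two. It was higher by 1.28 ± 0.37 (adjusted p = 0.0147), *Syn2* was higher by 1.49 ± 0.25, and *Syn3*, the form of early development, was not called (-0.09 ± 0.28). *Syp*, synaptophysin, an abundant partner of synaptobrevin, read 1.16, 1.55 and 1.76 in neurons, 0.25, 0.23 and 0.28 in regenerating axons and -0.05 to 0.16 in uninjured axons (1.49 ± 0.23, adjusted p = 0.000578). *Sncb*, beta-synuclein, was higher by 2.30 ± 0.25.

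In vesicle recycling 4 of 5 genes were higher, with a median of 2.41, and 1 was not called. *Dnm1*, the neuronal dynamin that pinches off vesicles, read 2.79, 2.96 and 3.02 in neurons, -0.12, -0.02 and -0.26 in regenerating axons and -0.26 to 0.03 in uninjured axons. The tight neuron arrays gave a difference of 2.92 ± 0.19 (7.59-fold, adjusted p = 6.92e-06). *Snap91*, the clathrin adaptor AP180, read 2.47, 2.37 and 2.38, then -0.40, -0.72 and -0.47, and -0.10 to 0.25 (2.41 ± 0.19). *Synj1*, synaptojanin, which strips clathrin coats through its lipid phosphatase activity, was higher by 2.57 ± 0.28, and *Sh3gl2*, endophilin A1, by 0.75 ± 0.25 (adjusted p = 0.0252). *Amph*, amphiphysin, read 0.51, 0.23 and 0.57 in neurons, -0.14, -0.07 and -0.06 in regenerating axons and -0.31 to 0.31 in uninjured axons and was not called (0.44 ± 0.23, adjusted p = 0.125).

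Transmitter is loaded by transporters in the vesicle membrane. *Slc32a1*, the transporter for GABA and glycine, read 2.35, 0.98 and 2.70 in neurons, 0.22, -0.14 and 0.29 in regenerating axons and -0.11 to 0.34 in uninjured axons. The second neuron array was lower than the other two and still above all axon arrays, and the difference was 2.01 ± 0.52 (adjusted p = 0.00887). *Slc17a7*, VGLUT1, the glutamate transporter of most cortical terminals, read 0.411, 0.996 and 1.501, then 0.31, 0.34 and -0.03, and -0.06 to 0.16 (0.97 ± 0.33, adjusted p = 0.0303). *Slc17a6*, VGLUT2, read 0.62, 0.63 and 0.41 in neurons, 0.41, 0.00 and 0.26 in regenerating axons and -0.31 to 0.41 in uninjured axons, and was not called (0.55 ± 0.25, adjusted p = 0.0838). Of 7 inhibitory neuron markers, 5 were higher in neurons and 1 lower, with a median of 1.75. When the arrays were shifted to one median, which moved the median of all genes by 0.22, *Slc17a7* (0.75, adjusted p = 0.0603) and *Sh3gl2* (0.53, adjusted p = 0.0601) no longer passed, and no called gene changed sign.

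**Figure D3:**
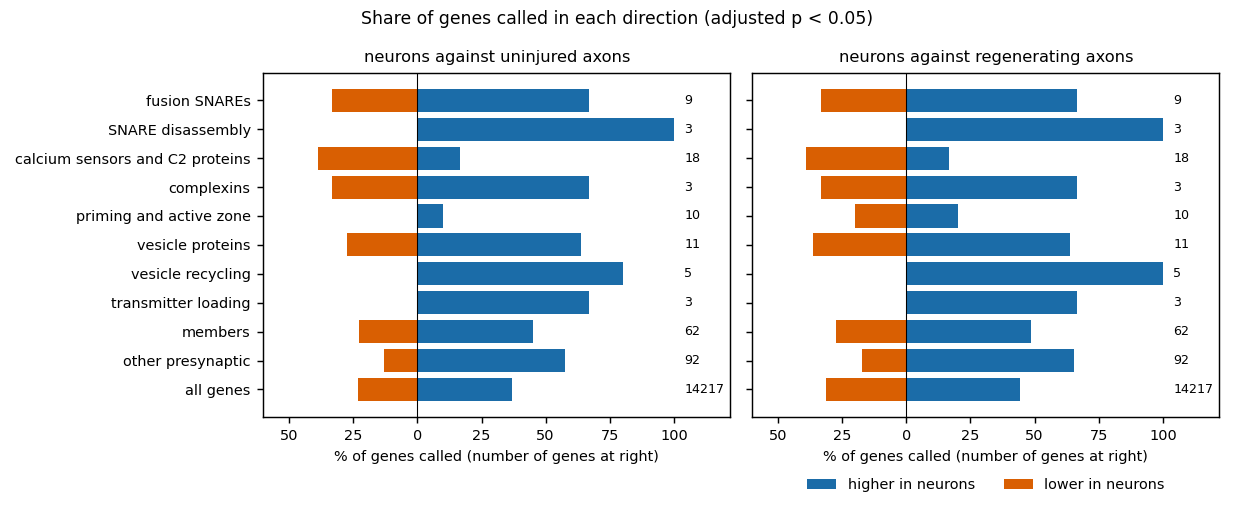
Share of genes called higher (blue, to the right) and lower (orange, to the left) in neurons, in percent of the genes of each role, against uninjured axons (left panel) and against regenerating axons (right panel), with the number of genes beside each bar. The bottom bar gives all 14217 genes. SNARE disassembly and vesicle recycling reach furthest to the right, and calcium sensors and C2 proteins furthest to the left.

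Single probe sets of one gene did not always tell the same story. Of the 93 probe sets, 38 (40.9%) were higher and 22 (23.7%) lower in neurons than in uninjured axons, beside 34.2% and 21.7% of all probe sets with 1 symbol. Among the 25 genes with several probe sets, 3 (12%) held one called higher and one called lower, as did 11.8% of all 4525 such genes. For *Vamp2*, one probe set read 2.86, 3.14 and 3.65 in the neuron arrays (3.22 ± 0.29) and the other -0.82, -0.82 and -1.20 (-0.95 ± 0.29). For *Bsn*, the pair gave 0.85, 1.46 and 1.32 (1.21 ± 0.26) and -0.74, -0.64 and -0.58 (-0.66 ± 0.18). The 3 probe sets of *Sv2b* gave the widest gap, 5.58, with values of 4.75 ± 0.75, 1.31 ± 0.29 and -0.83 ± 0.32. Which transcripts or parts of transcripts these probe sets read is not given in the sources used here.

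In other genes the probe sets differed in size, in call or, where not called, in sign. In 11 of the 25 genes some probe sets were called, in one direction, and others not, as in 2290 of all 4525 such genes. These were *Cplx1*, *Ppfia4*, *Sh3gl2*, *Snap91*, *Syn1*, *Syn2*, *Syngr2*, *Syt7*, *Vamp1*, *Vamp4* and *Vamp5*. *Snap91* was 4.70 ± 0.26 by one probe set and 0.11 ± 0.23 by the other, *Syt4* 4.74 ± 0.44 and 1.81 ± 0.55, and *Stx1a* 3.30 ± 0.26 and 1.80 ± 0.26. In 7 of the 25 genes (28%) every probe set was called in one direction, against 19.8% of all genes with several. *Nsf*, *Sncb*, *Syngr1*, *Cplx3*, *Slc17a7*, *Stx1a* and *Syt4* were the 7. The direction of *Vamp2* and *Sv2b*, and the lack of a call for *Bsn*, *Ppfia4* and *Syt7*, thus rest on averaging. Calls of the others of the 11 rest on a mean of called and uncalled probe sets.

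**Figure D4:**
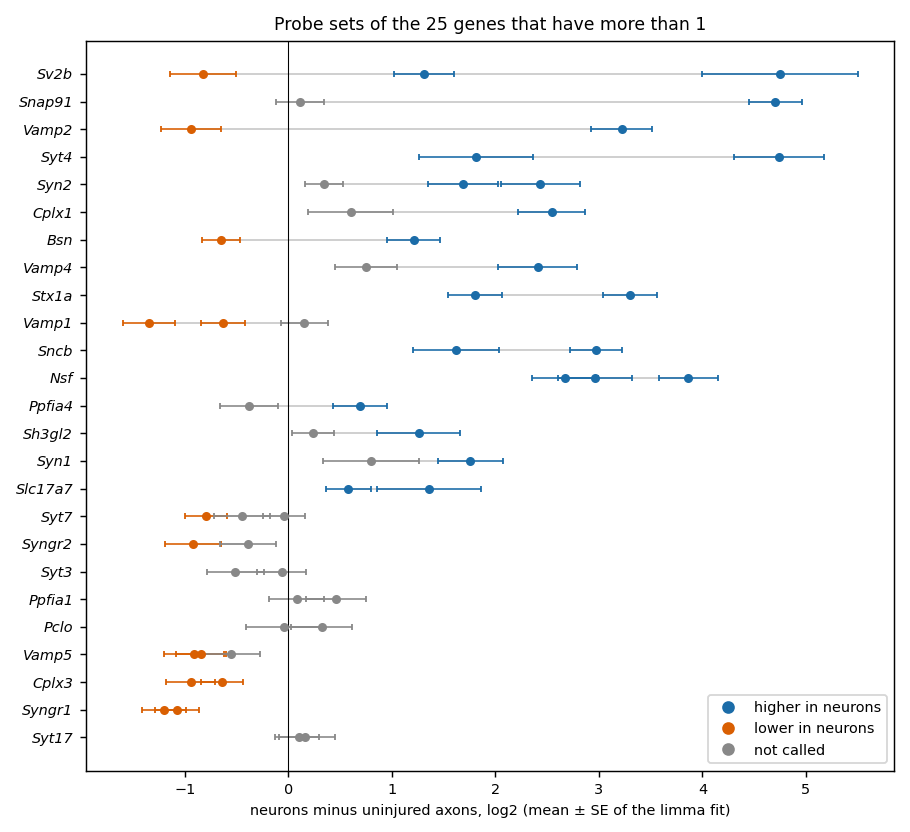
Difference between neurons and uninjured axons (horizontal axis, log2, mean ± SE of the limma fit) for every probe set of the 25 genes with more than 1, ordered by the gap between their lowest and highest probe set. Blue marks probe sets called higher, orange lower and grey not called. *Sv2b*, *Vamp2* and *Bsn* have blue and orange points at once.

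Whether these messenger RNAs differ in axons that regrow after a cut was examined against uninjured axons. Of the 62 genes, 1 was called, the liprin gene *Ppfia3*, which was lower in regenerating axons. Its ratios were 0.309, 0.221 and 0.152 in the 3 regenerating arrays, which is log2 -1.69, -2.18 and -2.72, while uninjured arrays spread from -0.48 to 0.34 and neurons read 1.38, 1.22 and 1.94. Every regenerating array lay below every uninjured array, and every neuron array above. The difference from uninjured axons was -2.20 ± 0.39 (4.58-fold lower, adjusted p = 0.0416), from a single probe set. Settings under which the call was lost included the fits without regenerating array 2 (adjusted p = 0.122) or array 3 (adjusted p = 0.0900) and the spread without uninjured arrays 4 to 6 (adjusted p = 0.0707). Neuron markers were low in the same arrays, at medians of -0.79, -0.67 and -1.16, with 0 of 8 called and 4 of 8 at an unadjusted p under 0.05 in the limma fit, and *Map2*, a protein of dendrites and cell bodies, at -2.34. Control probe sets for GAPDH were low there too, at -1.49, -2.66 and -2.82 for the 3′ end and -1.013, -1.515 and -2.002 for the 5′ end, lowest in array 3 as *Ppfia3* was. Beta-actin at its 3′ end read -0.31, -0.53 and -0.68, and the hybridisation controls 0.21, 0.45 and 0.62. The part of these shifts in the *Ppfia3* value was not tested.

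Over all genes 0.0352% were called higher and 0.689% lower in regenerating axons, and among the 62 none was higher. At an unadjusted p under 0.05 in the limma fit 3 of the 62 (4.84%) were lower and none higher, beside 12.4% of all genes in either direction. Regenerating arrays lay above all uninjured arrays for 10 of the 62 and below them for 6 of the 62. Over all 14217 genes the counts were 1458 (10.3%) and 1780 (12.5%). The median difference was log2 0.05 beside 0.02 over all genes. By the mean of a gene's probe sets, *Ppfia3* alone differed by 2-fold at any p, as did 5.35% of all genes. For 52 of the 62 the 95% interval of the difference lay within 2-fold of 0 change in both directions. A change of 2-fold or more in the mean of a gene's probe sets is outside the interval of these 52. The intervals rest on a spread between arrays that may be technical, and on the error given to the reference. They therefore do not exclude such a change between cultures, nor smaller ones. Single probe sets can differ by more. Those of *Sv2b* ran from -1.50 to 0.22 and those of *Snap91* from -1.18 to 0.11, none of them called.

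After *Ppfia3*, the lowest p-values belonged to *Cplx1* and *Snap91*, whose arrays are given above. *Cplx1* was -0.57 ± 0.19 (adjusted p = 0.232) and *Snap91* -0.53 ± 0.19 (adjusted p = 0.259) in the limma fit, and both had all 3 regenerating arrays below the uninjured range. For *Snap91* one probe set carried this, at -1.38, -1.33 and -0.82, while the other read 0.58, -0.11 and -0.13. Next came *Syt8*, at 0.41, 0.36 and 0.30 in regenerating axons against -0.15 to 0.17 in uninjured axons (0.36 ± 0.16, adjusted p = 0.409). *Syt15*, at 0.34, 0.26 and 0.38 (0.33 ± 0.15, adjusted p = 0.416), and *Cplx3* (0.37 ± 0.17, adjusted p = 0.434) followed. All 3 stood above the uninjured arrays without passing. *Snap25*, low in the third regenerating array, was -0.67 ± 0.67 (adjusted p = 0.803), and *Syt1* was 0.22 ± 0.28 (adjusted p = 0.856).

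Regenerating axons were also set directly against neurons, which holds only if both were divided by the same reference, a point the sources used here do not give. This comparison shares its neuron arrays with the first, so its calls are no independent support. Of the 62 genes, 30 (48.4%) were higher in neurons and 17 (27.4%) lower, against 44.2% and 31.3% of all genes, and the median was 0.39 beside 0.23. Of the 25 genes with several probe sets, 5 (20%) held a probe set called higher and another called lower, beside 21.7% of all such genes. These were *Bsn*, *Ppfia4*, *Sv2b*, *Syt7* and *Vamp2*, whose call or lack of one rests on averaging. Of the 62 genes, the lowest p-values were those of *Dnm1* (3.06 ± 0.14, adjusted p = 1.7e-06), *Syt16* (4.21 ± 0.20), *Snap91* (2.94 ± 0.14), *Syngr3* (3.73 ± 0.21), *Snap25* (5.57 ± 0.31, 47.4-fold) and *Nsf* (2.93 ± 0.17). Their per-array values, given above, did not overlap between the groups. *Ppfia3* differed by 3.71 ± 0.29 (13.1-fold, adjusted p = 2.01e-05), beside 1.51 ± 0.35 for neurons against uninjured axons.

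By role, calls against regenerating axons were 6 higher and 3 lower for fusion SNAREs, 3 and 0 for SNARE disassembly, 3 and 7 for calcium sensors and C2 proteins, and 2 and 1 for complexins. Vesicle proteins had 7 higher and 4 lower, recycling genes 5 higher and transporters 2 higher. Over all genes 44.2% were higher and 31.3% lower. Within priming and the active zone 2 were higher (*Ppfia3* and *Ppfia1*, the latter 0.49 ± 0.16) and 2 lower (*Rims1*, -0.60 ± 0.15, and *Ppfia2*, -0.44 ± 0.17). *Syn3* (-0.46 ± 0.14) and *Amph* (0.53 ± 0.14) passed here as well. With the arrays shifted to one median, *Amph* (0.32, adjusted p = 0.0568) and *Ppfia1* (0.28, adjusted p = 0.169) no longer passed, and *Ppfia1* was 0.02 (adjusted p = 0.941) by its probe set of highest mean. Of these 6, the calls of *Ppfia2* and *Ppfia1* were lost without several single arrays (adjusted p up to 0.135 and 0.0827), that of *Syn3* without neuron array 1 or regenerating array 3 (0.0799 and 0.0633). The complexin *Cplx2* (0.54 ± 0.18, adjusted p = 0.0286) lost its call without single arrays (adjusted p up to 0.0961) and with the shift (adjusted p = 0.160). So did *Slc17a7* (0.76 ± 0.27, up to 0.110) and *Sh3gl2* (0.59 ± 0.19, up to 0.0739), where the shift gave adjusted p = 0.0758 and 0.0730. The regenerating arrays of *Rims1*, at 0.40, 0.50 and 0.55, lay above its neuron arrays, at -0.32, -0.13 and 0.09.

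A wider list of 107 genes for SNAREs, vesicles, release and endocytosis that are not among the 62 gave 92 measured genes. Of these, 53 (57.6%) were higher and 12 (13%) lower in neurons than in uninjured axons, beside 36.9% and 23% of all genes. Their median was log2 1.14, beside 0.22 over all genes. The highest were the clathrin adaptor subunit *Ap2m1* (5.23 ± 0.35), the proton pump subunit *Atp6v0c* (4.91 ± 0.42), which energises vesicle filling, and the endosomal syntaxin *Stx7* (4.77 ± 0.49). The lowest were the monoamine transporters *Slc18a2* (-1.19 ± 0.29) and *Slc18a1* (-1.06 ± 0.22) and the Munc13 relative of secretory blood cells *Unc13d* (-1.12 ± 0.23). In regenerating axons 1 of the 92 was called, the endophilin *Sh3gl3*, lower at -1.98 ± 0.35 (adjusted p = 0.0416), and 0 were higher. In the limma fit 13 of the 92 (14.1%) had an unadjusted p under 0.05 there, near the 12.4% of all genes. Against regenerating axons 60 of the 92 (65.2%) were higher and 16 (17.4%) lower in neurons, beside 44.2% and 31.3% of all genes. Called genes ran from *Stx7* (7.77 ± 0.52), *Clta*, a clathrin light chain (6.37 ± 0.54), and *Ap2m1* (6.25 ± 0.24) to *Lin7c* (-1.39 ± 0.17), *Slc18a2* (-1.40 ± 0.21) and *Unc13d* (-1.58 ± 0.15).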

How the data were processed

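RNA was measured on 13 GeneChip arrays. Per the submitters' processing notes RMA was used, which summarises background-corrected, normalised probe signals, with no version or settings stated. The deposited values are linear ratios of 31099 probe sets, not log2 signals, made by the authors with a divisor that is not given in the sources used here. The median of the deposited ratio over uninjured arrays 1 to 3, and over 4 to 6, is 1 in 100% of rows (tolerance 0.0001), against at most 60.6% in the other 18 sets of 3, so each set was taken as divided by its own median. Array 7 is 1 in all rows.

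Ratios were taken to log2 without a pseudocount, and a gene is the mean of its probe sets with 1 symbol. The log2 values were tested in R 4.3.3 with lmFit and eBayes of limma 3.58.1 over all 14217 genes. Against uninjured axons, the mean of 3 arrays was tested against the reference, which counted as 1 array. The spread was pooled from the group's arrays and from uninjured arrays within their sets. Neurons and regenerating axons were compared as 2 groups. No filter on low values was set, and no presynaptic gene reached the lowest ratio, 0.01. All 13 columns were matched by title, and the script's statistics were tested on simulated data.

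The members and lists were chosen with earlier results of these data known. Values by array are given for 15 fixed genes (*Snap25*, *Stx1a*, *Vamp2*, *Syt1*, *Cplx1*, *Cplx2*, *Unc13a*, *Bsn*, *Pclo*, *Syn1*, *Syp*, *Sv2a* and the 3 transporters), for the highest and lowest gene of each role in neurons against uninjured axons, and for the 6 lowest p-values in each of the other comparisons. From other lists, up to 3 called genes at each end are named. *Vamp3* and *Rims1* arrays were added after their values were seen. The symbol *Olr1*, which is an oxidised lipoprotein receptor, was left out of the smell receptor class. Gene symbols are those of the array's annotation. Promoters are from RefSeq, GRCr8, where all 62 symbols were found. Alternatives covered the choice of probe set, scaling, reference error, spread, filter, robust eBayes, replicate block and left-out arrays.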

Additional observations from a re-analysis of the deposited data

Results flagged for a closer look

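Of the 62 genes, 8 had 1 uninjured array far from the other 5 by Dixon's ratio of the gap to the nearest array over the whole range, at the 95% critical value for 6 values. Chance flags about 1 in 20 groups of independent values. Here the division fixed the medians of both sets at 0 for each probe set, which was not allowed for, so that rate need not hold. The ratio was computed for the 62 genes alone, so whether 8 is more than among all genes cannot be told. Array 4 was apart for *Syt1* (log2 -0.61), which had the largest ratio, for *Vamp3* (1.86), the value farthest from 0, and for *Rims2* (0.29) and *Syngr1* (-0.22). Array 2 was apart for *Syt16* (0.74), *Sv2c* (-0.50) and *Vamp7* (-0.34), and array 1 for *Ppfia4* (0.35).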

How the results depend on the processing

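Over the alternatives tried, 26 to 34 of the 62 genes were higher and 12 to 19 lower in neurons than in uninjured axons. Over all genes these shares ran from 32.5% to 47.8% and from 18.8% to 34.3%. Against regenerating axons, 25 to 33 of the 62 were higher and 15 to 21 lower in neurons. There the shares of all genes ran from 39.5% to 47% and from 27% to 37.1%. The regenerating against uninjured axons comparison moved most, from 0 higher and 1 lower. With the reference given the error of 3 arrays, 3 were lower, beside 7.16% of all genes. With that error left out 11 were higher and 6 lower, where 11.2% and 14% of all genes were. Leaving out uninjured arrays 4 to 6 from the spread gave 0 lower, beside 0.134% of all genes. Leaving out each regenerating array in turn gave 0 to 1. Without array 1, 2 or 3, the share of all genes lower was 2.54%, 0.0211% or 0%. The replicate block gave 0 lower, beside 2.24% of all genes, with *Ppfia3* at log2 -2.15 (adjusted p = 0.0531). It changed 1 other call in each of the remaining comparisons. Same-numbered arrays of neurons and regenerating axons deviated together at r = 0.17, 0.18 and -0.12, so the numbers were not taken to pair samples. With the probe set of highest mean, *Vamp1* turned to 0.15 against uninjured and 0.0601 against regenerating axons (adjusted p = 0.585 and 0.726). That mean is of log2 ratios with neuron arrays included, so the choice itself leans towards probe sets higher in neurons. Over all genes it gave 40.3% higher and 18.8% lower in neurons than in uninjured axons. Other calls lost in neurons against uninjured axons under at least 1 alternative were *Sh3gl2*, *Slc17a7*, *Syngr2*, *Syt12* and *Vamp5*, and in neurons against regenerating axons *Amph*, *Cplx2*, *Ppfia1*, *Ppfia2*, *Sh3gl2*, *Slc17a7* and *Syn3*. Where an alternative changes a call, the cause was not tested beyond what its construction shows. Of the 62 genes, 56 could be fitted without probe sets of suffix _a_, _s_ or _x_. The ratios leave signal over background unknown.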
